A study of Mus musculus with 16 samples.

Results

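The regions described here are very wide m6A peaks of WT MC38 cells that lay outside YTHDF2 RIP peaks. A peak was taken where its exonic blocks summed to at least 600 bases and shared no base, on the same strand, with an exonic block of any YTHDF2 RIP peak. Of 19236 WT m6A peaks, 594 met both conditions (3.09%). They held 510189 bases, 8.15% of all WT peak bases, in 531 genes. Width and RIP overlap chose these peaks, so both are given below as a description and were not tested.

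The study mapped m6A and YTHDF2-bound RNA in MC38 cells, a mouse colon adenocarcinoma line, in 16 libraries. WT cells (titled gNC) and Ythdf2-KO cells (titled gY2) each gave 3 m6A immunoprecipitation libraries and 3 input libraries. YTHDF2 immunoprecipitation (RIP) was done in 2 libraries with 2 inputs, all labelled WT. All cells were grown in the same serum medium, and no other treatment is named. The sources used here do not say whether the knockout cells are 1 clone. The deposited values used were 1 peak list each for WT m6A, KO m6A (17428 peaks) and RIP (23372 peaks), and gene counts of the 6 input libraries, with totals of 45441281 to 50959555 per library. Peaks therefore have no value per library, and the depth behind a peak is unknown. The 10 epithelial markers looked up were at or near 0 in every input library (summed level 1.37 to 1.52 CPM in WT and 0.932 to 1.12 CPM in KO), and Epcam and Krt18 had 0 counts in all 6. Fibroblast markers summed to 2120 to 2680 CPM in WT and 1500 to 2640 CPM in KO, mostly Col3a1, and 8 of 9 exceeded 1 CPM in at least 1 library.

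N6-methyladenosine (m6A) is placed on mRNA in the nucleus by a methyltransferase complex built around METTL3, at adenosines within the consensus DRACH (D is A, G or T; R is A or G; H is A, C or T). It is known to be frequent in long internal exons and around stop codons, and scarce close to splice junctions, where exon junction complexes sit. YTHDF2 is a cytoplasmic m6A reader that brings deadenylases to the mRNAs it binds. A peak is a stretch of transcript whose fragments, here about 100 nucleotides long, were pulled down by the antibody, so a wide peak can span many modified bases and does not place any of them.

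Coding stretches from some of the widest peaks are given as examples, each picked where a feature was densest. The first set is 200 bases each from the widest peaks lying in 1 coding exon, at the place where DRACH matches (in capitals) are densest. Sequences are from GENCODE release M21 transcripts (GRCm38, the assembly of mm10), read 5′ to 3′ along the mRNA. Overlapping matches were counted, on the transcript strand only.
Nes, chr3:87976080-87976279, plus strand, exon 4 of 4: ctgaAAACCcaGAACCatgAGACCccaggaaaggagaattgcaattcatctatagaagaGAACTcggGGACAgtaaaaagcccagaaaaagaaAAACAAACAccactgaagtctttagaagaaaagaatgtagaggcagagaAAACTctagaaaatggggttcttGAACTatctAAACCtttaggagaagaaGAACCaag
Atrx, chrX:105876127-105876326, minus strand, exon 9 of 35: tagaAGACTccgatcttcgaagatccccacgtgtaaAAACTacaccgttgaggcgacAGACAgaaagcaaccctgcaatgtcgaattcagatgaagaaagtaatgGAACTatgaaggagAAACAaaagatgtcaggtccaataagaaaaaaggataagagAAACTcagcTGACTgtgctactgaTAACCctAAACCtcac
Cenpf, chr1:189654185-189654384, minus strand, exon 13 of 18: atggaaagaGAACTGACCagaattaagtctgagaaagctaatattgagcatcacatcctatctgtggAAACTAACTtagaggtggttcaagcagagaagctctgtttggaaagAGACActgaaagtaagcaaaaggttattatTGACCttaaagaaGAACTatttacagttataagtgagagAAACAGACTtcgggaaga
Ehbp1l1, chr19:5718889-5719088, minus strand, exon 9 of 19: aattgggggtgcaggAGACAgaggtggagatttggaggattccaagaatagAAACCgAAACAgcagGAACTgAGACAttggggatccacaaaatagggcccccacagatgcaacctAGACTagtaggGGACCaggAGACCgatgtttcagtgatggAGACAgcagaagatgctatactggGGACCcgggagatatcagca
Ppp1r18, chr17:35868040-35868239, plus strand, exon 2 of 3: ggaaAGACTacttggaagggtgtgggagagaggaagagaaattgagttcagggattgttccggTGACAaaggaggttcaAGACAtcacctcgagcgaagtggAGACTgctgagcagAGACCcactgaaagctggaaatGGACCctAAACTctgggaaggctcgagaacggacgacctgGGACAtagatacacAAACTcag
These windows held 11 matches in Nes, 10 in Ehbp1l1 and 9 in each of the others. Of 82935 coding windows of that length, 98.0% held at least 1 match and 2.51% held at least 9, so a single match carries little information and a match is not a site.

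The second set is 150 bases (50 codons) from peaks spread over many short exons, where codons for glutamate, GAA and GAG, are in capitals. The window shown is the one richest in them, and all 4 genes encode proteins with long coiled coils. Tpr is a filament of the nuclear pore basket, Myh9 the heavy chain of non-muscle myosin IIA, Cenpe a kinetochore kinesin and Eea1 a tether of early endosomes.
Tpr, chr1:150422528-150422677, plus strand, exon 24 of 52: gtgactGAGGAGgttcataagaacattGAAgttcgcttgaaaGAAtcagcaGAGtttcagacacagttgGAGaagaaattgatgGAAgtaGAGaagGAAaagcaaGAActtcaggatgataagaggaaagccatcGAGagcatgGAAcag
Myh9, chr15:77775113-77775262, minus strand, exon 22 of 41: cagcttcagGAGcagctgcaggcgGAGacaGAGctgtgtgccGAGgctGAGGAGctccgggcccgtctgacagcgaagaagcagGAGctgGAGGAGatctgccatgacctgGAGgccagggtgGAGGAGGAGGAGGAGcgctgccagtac
Cenpe, chr3:135246940-135247089, plus strand, exon 31 of 46: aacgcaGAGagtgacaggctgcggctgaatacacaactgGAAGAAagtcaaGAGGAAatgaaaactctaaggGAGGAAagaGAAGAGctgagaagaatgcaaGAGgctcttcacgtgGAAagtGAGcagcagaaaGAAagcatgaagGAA
Eea1, chr10:96038720-96038869, plus strand, exon 25 of 29: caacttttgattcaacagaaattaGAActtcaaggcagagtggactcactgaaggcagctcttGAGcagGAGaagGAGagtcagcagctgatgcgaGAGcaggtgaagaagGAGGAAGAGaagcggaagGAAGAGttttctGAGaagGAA
The windows held 12 glutamate codons of 50 in Tpr, 15 in Myh9, 14 in Cenpe and 12 in Eea1. Of 112239 coding windows of that length, 1.25% held at least 12. The windows shown were picked as the richest, so this is no test. Over the whole peaks, glutamate codons made up 14.18% in Tpr, 19.25% in Myh9, 17.68% in Cenpe and 15.44% in Eea1. Purines made up 64.7% of the Myh9 window and 74.7% of the Cenpe window.

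In width, the peaks ranged from 600 to 2878 bases with a median of 750 (interquartile range 660 to 955.5). A width of 600 to 799 bases was found in 334, 800 to 999 bases in 132, 1000 to 1499 bases in 103, and more in 25. Peaks of exactly 600 bases, at the limit, included those in Ahi1, Naca, Ifi203 and Zfp652. Just below it, peaks of 599 bases included those in Ankrd24, Hk1, Ccar1 and Pes1. The list held 2212 WT peaks of at least 600 bases, of which 26.9% lay outside RIP peaks. Put the other way, 5.97% of the 9946 WT peaks outside RIP peaks were that wide, against 17.4% of the peaks under RIP peaks. Of the 594 peaks, 436 were in genes with no RIP peak anywhere and 158 in genes with a RIP peak elsewhere.

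The widest was in Nes, the gene of the intermediate filament protein nestin, with 2878 bases in 1 block (chr3:87975865-87978742), within a last exon of 5031 bases. The Tpr peak followed with 2849 bases in 18 blocks (chr1:150413963-150430522), the largest block of 335 bases. Some of its bases lie outside the exons of the transcript used, whose longest exon touched had 211 bases. Myh9 had 2431 bases in 14 blocks (chr15:77765683-77775264) and the chromatin remodeller gene Atrx 2398 bases in 1 block (chrX:105874621-105877018). Rrbp1, a ribosome-binding protein of the endoplasmic reticulum, had 2070 bases, Cenpe 2066, Eea1 2039, Uaca 2006, the centrosome and Golgi scaffold Akap9 1950, and the cyclophilin Ppig 1859. Thus 1 long exon (Nes, Atrx) and strings of short exons (Tpr, Myh9, Cenpe, Eea1) both stood among the 10 widest.

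Several peaks fell in the same gene for 51 genes, which together held 114 of the 594, and 9 genes had 3 or more. Akap9 had 4 peaks of 660 to 1950 bases, Bod1l 4 of 781 to 1020 bases, and Cenpf, a kinetochore and microtubule protein, 4 of 720 to 1649 bases. The 1109-base and 1649-base peaks of Cenpf were neighbours in WT and lay wholly within a single KO peak of 3806 bases. Cenpe had 3 peaks of 600, 1827 and 2066 bases. Peaks of the same gene share its level and are not independent, and 14 of the 594 shared bases with another, which left 587 separate loci.

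Of the host genes, 518 were protein coding and 9 were long non-coding RNAs. Malat1, a nuclear RNA of speckles, had a peak of 1739 bases. Neat1, the scaffold RNA of paraspeckles, had overlapping peaks of 1011 and 1020 bases. The mitochondrial genome held 5 of the 594, in mt-Rnr2, mt-Nd2, mt-Nd4, mt-Nd5 and mt-Cytb, with widths of 627 to 1226 bases.

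Host genes were then grouped by what their proteins do, as the number with such a peak among those with any WT m6A peak. Over all 9427 genes with a WT m6A peak the share was 5.63%, and 1410 of them had a wide peak under a RIP peak. The lists and symbol families were chosen with results of these data known, and their shares were not tested. Among m6A factors it was 4 of 20, with Wtap and Zc3h13 of the methyltransferase complex (928 bases, and 1557 and 839 bases), the nuclear reader Ythdc1 (929 bases) and Hnrnpa2b1 (1198 bases), while 8 of the 20 had a wide peak under a RIP peak. Among exon junction and associated decay factors it was 5 of 11, namely Acin1, Pnn, Upf2, Upf3a and Upf3b, against 2 with a wide peak under a RIP peak. The Pnn peak covered 1494 bases of a 2573-base exon. Among RNA binding and splicing factors it was 15 of 49, and 21 of the 49 had a wide peak under a RIP peak. The hosts included Ppig, the splicing factor Rbm25 (1109 bases), nucleolin (Ncl, 1020 bases), the RNA helicase Ddx21 (809 bases) and the translation initiation factor Eif5b (1766 bases).

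Among cell cycle and genome maintenance genes 7 of 31 were hosts, fewer than the 19 with a wide peak under a RIP peak. The hosts included Cenpe, Cenpf, the proliferation antigen Mki67 (899 bases), the DNA repair ATPase Rad50 (1374 and 628 bases) and the mitotic kinesin Kif20b (1530 and 721 bases). The giant cytoskeletal and scaffold list had 5 of 34, against 12 with a wide peak under a RIP peak. The 5 were Nes, Myh9, Akap9, Rrbp1 and the actin-binding caldesmon gene Cald1 (1858 bases). Chromatin and transcription regulators had 7 of 93, and 55 of the 93 had a wide peak under a RIP peak. Growth control transcription factors had 4 of 57 (Sox12, Ier2, Maf and Zeb2) against 18 with a wide peak under a RIP peak, and zinc finger genes 9 of 353 (2.55%) against 95 with a wide peak under a RIP peak. Signalling ligands, receptors and feedback genes had 0 of 48, while 11 had a wide peak under a RIP peak.

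In families picked by symbol after their values were seen, all 6 marked Smc genes were hosts. They encode the ATPases of cohesin, condensin and the SMC5/6 complex, with 10 peaks in all. Smc1a had peaks of 689, 838 and 1107 bases, Smc2 of 989 and 1079, Smc3 of 1139 and 1198, Smc4 of 719, Smc5 of 868 and Smc6 of 810. In each of them the largest block was at most 421 bases, and the RIP list held no peak in any of these genes. All 3 marked Luc7l splicing factors were hosts too, with peaks of 630, 960 and 1019 bases. Of the marked Hnrnp genes 8 of 19 were hosts, of Nop and Utp genes for ribosome assembly 6 of 18, and of Rpl and Rps ribosomal protein genes 0 of 58.

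On the transcript, the wide peaks lay in coding sequence and ran across several exons. Of 551 peaks placed on a coding transcript, 88.6% had their centre in coding sequence (95% exact binomial interval 85.6% to 91.1%), 11.1% in the 3′ UTR and 0.363% in the 5′ UTR. Wide peaks under RIP peaks had 71.5% in coding sequence (69.1% to 73.8%) and narrower peaks outside RIP peaks 58.0% (56.8% to 59.1%). Of the 3 sets, 20.7%, 21% and 29.9% were centred no more than 200 bases from the stop codon. The stop codon lay inside 42.1% of the 565 with a coding transcript, and 45.8% were wholly coding. Intervals cover counting error only, peaks are not replicates, and differences between the sets of peaks were not tested.

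**Figure D1:**
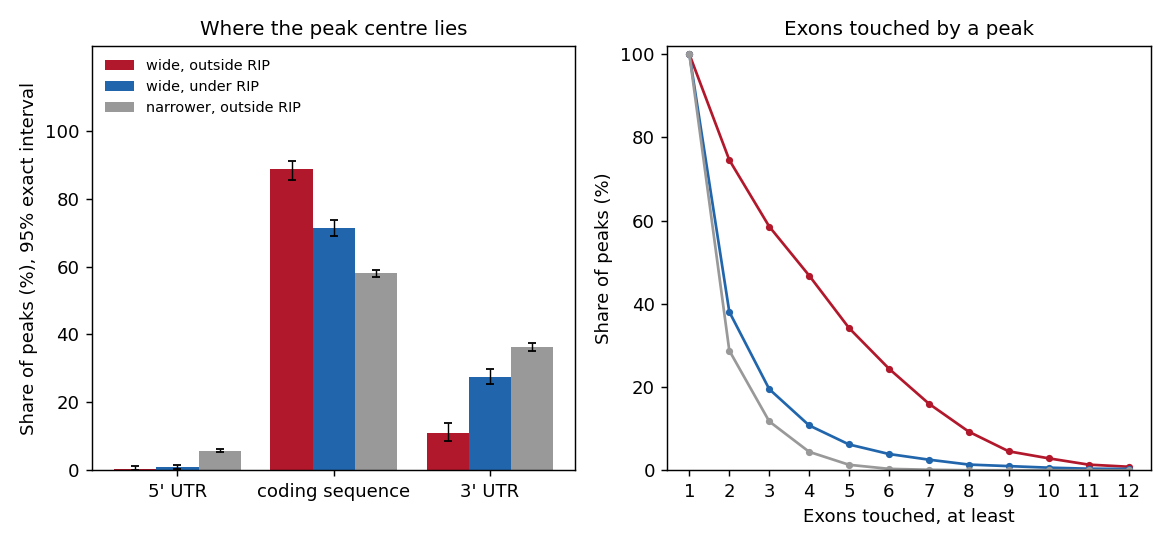
Share of peaks by transcript region of the centre (left, % with exact 95% intervals, n = 551, 1512 and 7375) and share of peaks touching at least the number of exons on the horizontal axis (right, %), for wide peaks outside RIP peaks, wide peaks under them and narrower peaks outside them. Wide peaks outside RIP peaks had 88.6% of centres in coding sequence and a median of 3 exons touched, against 1 in both other sets.

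The median peak touched 3 exons, against 1 exon for wide peaks under RIP peaks and 1 for narrower peaks outside them. A single block made up 23.4% of the 594 (20.1% to 27%), against 58.5% of wide peaks under RIP peaks and 66.0% of narrower ones outside. At least 4 blocks made up 49.0%, against 12.2% and 5.86%. The largest block held a median of 61.7% of the peak. The longest exon touched had a median of 872 bases, against 1934 for wide peaks under RIP peaks. In 28.8% of the 594 every exon touched was shorter than 400 bases, against 4.71% of wide peaks under RIP peaks, 31.4% of narrower peaks outside and 23.4% of all WT peaks. Sp140, which encodes a nuclear body protein, is such a case, with 691 bases in 9 blocks, the largest of 105 bases. Cenpe (2066 bases, longest exon 288) and Eea1 (2039 bases, longest exon 331) are others, on the transcript used.

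In base composition the wide peaks were purine rich. Over all bases of the 594, purines made up 60.4% (A 32.2%, G 28.1%), against 53.1% in unpeaked coding sequence of the same transcripts. For wide peaks under RIP peaks the values were 54.7% and 51.6%, and for narrower peaks outside RIP peaks 56.3% and 51.8%. Of 440 peaks whose transcript had at least 300 unpeaked coding bases, 394 had the higher purine share inside the peak (89.5%, 86.3% to 92.2%). That share was 71.5% for wide peaks under RIP peaks and 72.1% for narrower ones outside. By position, the median purine share was 61.8% for the 488 with a coding centre and 52.8% for the 61 with a 3′ UTR centre.

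Glutamate codons made up 14% of the codons in the 594, against 7.66% in unpeaked parts of the same transcripts. The values were 9.23% and 6.69% for wide peaks under RIP peaks, and 11.2% and 6.94% for narrower peaks outside. Lysine codons made up 10.2% against 6.53%. Among 524 peaks with at least 50 codons, 25 had under 5% glutamate codons and 53 had 20% or more. The highest values were in Ptms (37.2%), the histone chaperone Anp32b (34.4%), the ribosome assembly factors Las1l (32.4%) and Pelp1 (30.7%), and Rbm25 (30.3%), all chosen after their values were seen. The Rbm25 peak also had the highest purine share, 76.1%.

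**Figure D2:**
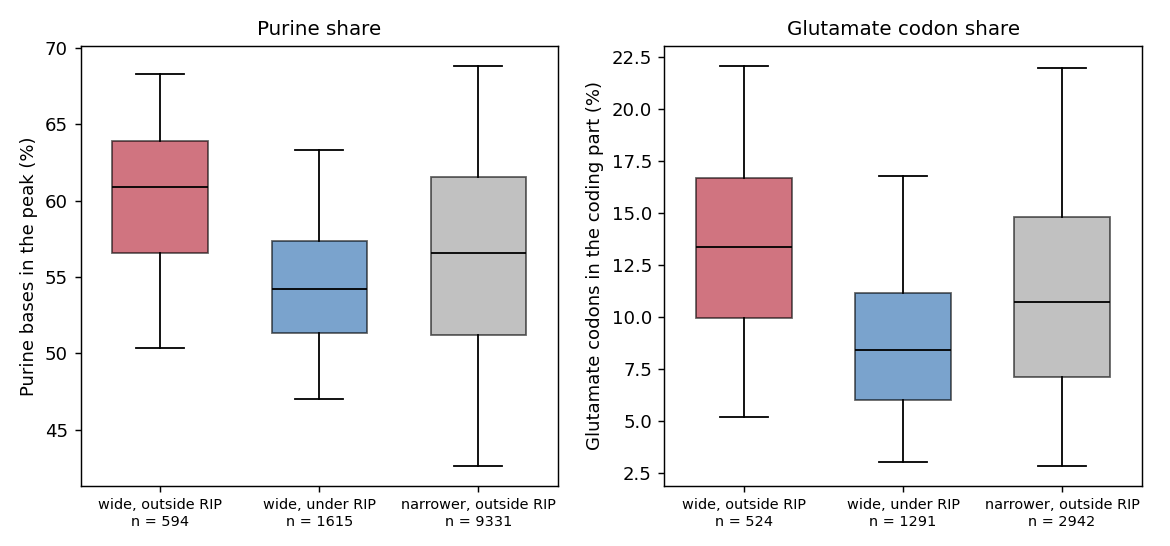
Purine bases as a share of the peak (left, %) and glutamate codons as a share of the codons in its coding part (right, %; peaks with at least 50 codons) in the 3 sets of peaks. Boxes span the quartiles with the median as a line and whiskers the 5th to 95th percentiles; the median purine share was 60.9% in wide peaks outside RIP peaks and 54.2% in wide peaks under them.

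Purine share went with the number of blocks. In the 594 its median was 55.6% in peaks of 1 block, 58.7% in peaks of 2 or 3 blocks and 62.7% in peaks of at least 4. The same order was seen in wide peaks under RIP peaks (53.1%, 54.9% and 60.0%) and in narrower peaks outside them (54.3%, 59.0% and 62.3%). Median glutamate codon shares in peaks of at least 4 blocks were 14.9%, 12.6% and 12.9% in the 3 sets. Within peaks that were wholly coding the median purine share was 63.2% (n = 259), against 56.7% under RIP peaks (n = 581) and 59.9% in narrower peaks outside (n = 2847). Over all peaks the median purine shares of the 3 sets were 60.9%, 54.2% and 56.5%. Within each block class the 3 medians lay closer together than that. In peaks of 2 or 3 blocks the narrower peaks outside RIP peaks had the highest of the 3.

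Not all wide peaks were of this kind. The Polr2a peak, 1049 bases in 1 block of the gene for the largest subunit of RNA polymerase II, had 32.3% purines, 0.857% glutamate codons and 1.91 DRACH matches per kilobase. In KO cells 97.1% of it was covered. The 5 mitochondrial peaks had a median of 44.9% purines, and the 4 in coding genes a median of 1.55% glutamate codons. The Hnrnpa1 peak (774 bases in 8 blocks) had 61.1% purines with 0.943% glutamate codons. These examples were chosen after their values were seen, and Hnrnpa1 belongs to the genes with near-identical processed copies, so its reads may be split among them.

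DRACH matches numbered 23.6 per kilobase in the 594 and 20.5 in unpeaked coding sequence of the same transcripts. The reversed motif, counted as a control for base composition, stood at 28.7 and 26.9, and the ratio of DRACH to reversed motif was 0.825 and 0.763. In wide peaks under RIP peaks DRACH stood at 25.1 per kilobase with a ratio of 0.864, and in narrower peaks outside at 23.1 with a ratio of 0.897. Of the 440 comparable peaks, 64.8% had more DRACH per kilobase than the unpeaked coding sequence of their transcript, against 80.2% of wide peaks under RIP peaks, 61.2% of narrower peaks outside and 66.4% of all WT peaks. No peak lacked the motif (0 of 594, which allows up to 0.619% by the exact interval). It was lacking in 0.0619% of wide peaks under RIP peaks and 4.98% of narrower peaks outside. At this width its presence carries little information, since 98.0% of 200-base coding windows held a match. Densities ran from 1.91 per kilobase in Polr2a to 43.1 in a Rad50 peak, and the Bod1l peak of 1020 bases had 39.2.

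The KO m6A list is the same measure in samples that the rule did not use. A KO peak overlapped 587 of the 594 by at least 1 base (98.8%, 97.6% to 99.5%). The share was 98.8% for wide peaks under RIP peaks, 74.6% for narrower peaks outside and 80.3% for all WT peaks. KO peaks covered a median of 97.1% of the bases, covered all bases in 45.1%, and in 79.5% at least 1 of the overlapping KO peaks was itself at least 600 bases wide. Summed KO width over WT width had a median of 1.00, with 267 peaks narrower, 183 wider and 137 equal. The peaks were chosen as wide in WT, so this split has no direction to read. The rank correlation of WT width with KO-covered bases over the 594 was 0.89, given as a description since covered bases cannot exceed the width.

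**Figure D3:**
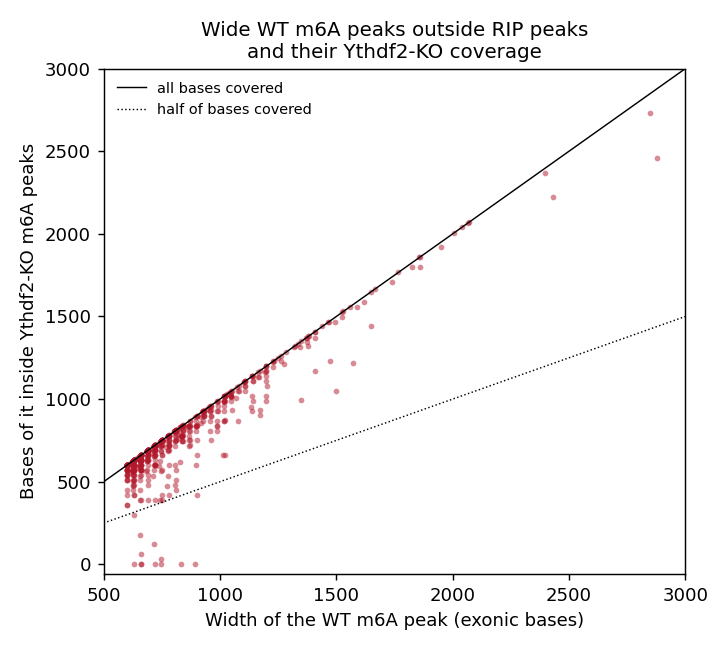
Each point is 1 of the 594 wide WT m6A peaks outside RIP peaks, with its width on the horizontal axis and the number of its bases inside Ythdf2-KO m6A peaks on the vertical axis, both in exonic bases. Most points lie on or close to the line of full coverage, and 7 lie at 0.

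Applied to the KO list, the same 2 conditions gave 531 KO peaks in 474 genes. Of these, 464 overlapped a wide WT peak outside RIP peaks (87.4%), all 531 overlapped some WT peak, and 421 genes were shared. The 7 WT peaks with no KO peak were in Gm4951 (892 bases), Hexim2 (831), Ccdc9b (747), the transcription factor gene Maf (721), Akap9 (660, beside 3 other Akap9 peaks that KO peaks covered), Arhgap30 (659) and Olfr56 (629). Their deposited scores, read as p-values, ran from 1e-104 in Maf to 2.5e-10 in Arhgap30. Mean input RNA of these 7 hosts was lower in KO-labelled cells, but the WT and KO-labelled values overlapped in Akap9 and Arhgap30. Over all 528 hosts tested, log2 fold changes had quartiles of -0.1 and 0.22. Log2 fold changes were -1.99 in Olfr56, -1.92 in Maf, -1.10 in Gm4951 and -1.07 in Hexim2. They were -1.01 in Arhgap30, -0.91 in Ccdc9b and -0.14 in Akap9. Of the 7, only Olfr56 had an edgeR adjusted p below 0.05. The part of host level in the missing KO peaks was not tested. A score of 0 was carried by 20.4% of the 594, by 4.70% of wide peaks under RIP peaks and by 1.75% of narrower ones outside. Beside the 7, low coverage was found in Coa7 (4.15% of 747 bases), Gm10800 (9.24% of 660), Rbm12b1 (16.8% of 714) and the interferon-induced gene Ifit1 (27.4% of 657), chosen after their values were seen. Each group has 1 list, so no test between genotypes could be made. KO-labelled input replicate 1 stood near WT (below), and the part of the KO m6A library of that number in the list was not tested.

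Most host genes of the wide peaks were well expressed. In the WT inputs the median level of the 531 hosts was 14.6 CPM per kilobase of exon (95% interval of the median 13.7 to 16.2). It was 8.34 for genes with a wide peak under a RIP peak and 9.19 for genes with a narrower peak outside. Of the 531, 519 exceeded a WT mean of 10 CPM. The 3 hosts not tested, Gm43055, Gm44503 and Gm49383, had 0 to 0.21 CPM in the 6 inputs. Their gene models overlap others on the same strand, so the gene of these peaks is uncertain. Peak width and host level were not ordered alike (rank correlation 0.06 over the 594). Within 3 classes of host level, cut over all WT peaks, the median purine share of the 594 stayed at 60.6% to 61.7%, and that of wide peaks under RIP peaks at 54.0% to 54.8%. The part of host level in the absence of RIP peaks was not tested.

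Input RNA of the host genes was compared between KO-labelled and WT cells with edgeR's quasi-likelihood test, Benjamini-Hochberg adjusted over 18969 genes. Of 528 hosts tested, 23 were higher in KO-labelled cells (4.36%, against 2.99% of all tested genes and 4.54% of genes with a WT m6A peak). A further 10 were lower (1.89%, against 1.54% and 1.64%). In total 6.25% of hosts changed, against 4.54% of all tested genes and 6.19% of those with a WT m6A peak, so their share was near that background. The median log2 fold change was 0.06 in hosts, 0.06 in genes with a WT m6A peak and -0.01 in all genes. The WT and KO-labelled values did not overlap in 37.5% of hosts, against 33.8% of all genes and 38.0% of genes with a WT m6A peak. Whole-gene counts of Ythdf2 do not check the knockout, so the direction rests on the labels. In bulk RNA, fewer cells of a type and less RNA per cell cannot be told apart.

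These calls depended on single libraries and on the filter for low counts. KO-labelled replicate 1 stood nearer to the WT libraries than to its own group. On a first principal component (51.4% of variance) it lay at -10.4. The WT libraries had -39.2 to -38.6 there, and KO-labelled replicates 3 and 2 had 63.2 and 64.1. In a pairwise chi-square scaled by degrees of freedom, it differed from WT replicates 1, 2 and 3 by 29.9, 47.5 and 47.7. From KO-labelled replicates 2 and 3 it differed by 72.3 and 72.1. WT replicate 1 differed from WT replicates 2 and 3 by 30.5 and 28.2. Without KO-labelled replicate 1, 141 hosts were higher and 75 lower. That was 40.9% of hosts against 35.4% of all genes and 46.7% of those with a WT m6A peak, and all 33 were still called. Without WT replicate 1, 3 were higher and 2 lower. That was 0.947% of hosts, against 0.476% of all genes and 0.648% of those with a WT m6A peak. Without WT replicate 2 or 3, or KO-labelled replicate 2 or 3, edgeR called 0 hosts in either direction. It called 0 to 5 of the 19469 to 19733 genes tested. In those fits 109 to 133 of 528 hosts had an unadjusted edgeR p below 0.05. So had 3457 to 4011 of all genes tested, and 2028 to 2373 of 9251 to 9261 genes with a WT m6A peak. Without the filter, edgeR called 4 hosts higher and 1 lower, and 11 of the 16 host genes named below lost their call. The calls made up 0.945% of hosts, against 0.317% of the 35049 genes then tested and 0.81% of genes with a WT m6A peak. With all libraries, DESeq2 gave 82 hosts higher and 38 lower. That was 22.7% of hosts, against 23.5% of genes with a WT m6A peak and 9.32% of the 35049 genes with any count. The last share includes genes of low count that the edgeR filter left out, so it is not on the same base as the shares over 18969 genes.

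**Figure D4:**
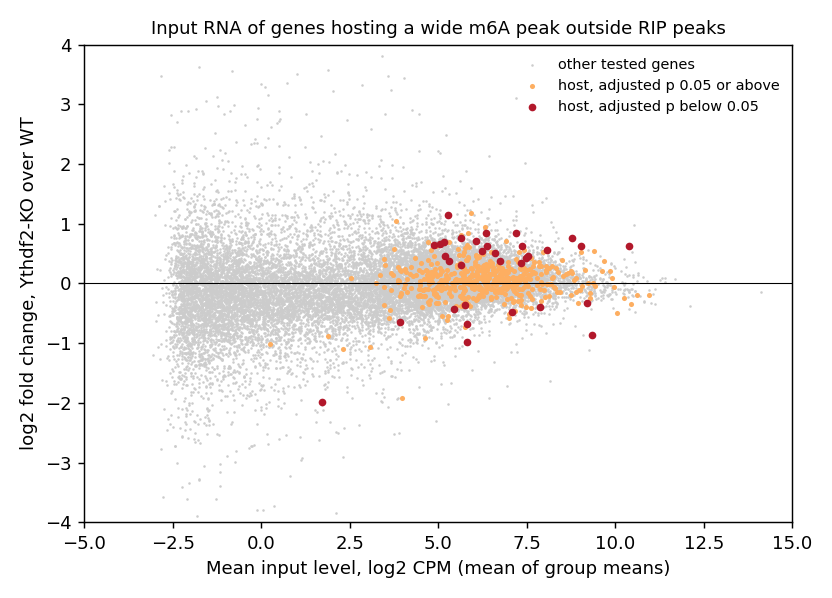
Log2 fold change of input RNA, Ythdf2-KO over WT, against mean level (log2 CPM) for 18969 tested genes (grey; 25 beyond the plotted range of 4 in either direction are not drawn), host genes of the wide peaks (orange) and the 33 of them with an edgeR adjusted p below 0.05 (red). The hosts sit at higher levels than most tested genes and scatter about 0, with 23 called hosts above and 10 below it.

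The 8 hosts of smallest p among those that rose are given first. RIP peaks lay elsewhere in the gene in Mki67 (6), Sox12 (3), Hspa13 (2) and Hyou1 (1). The RIP list held none in Calr, E2f1, Nasp or Tmem43. Of the 8, Calr, Hspa13 and Hyou1 encode proteins of the endoplasmic reticulum lumen. Calr, the chaperone calreticulin, measured 1097, 1026 and 1002 CPM in WT and 1397, 1702 and 1748 CPM in KO-labelled libraries, with no overlap and the lowest KO-labelled value in replicate 1. On the log2 scale the change was 0.63 (SE 0.10) with an edgeR adjusted p of 0.0293. Hspa13 measured 55.4, 47.9 and 49.1 CPM in WT and 81.5, 85.0 and 84.4 CPM in KO-labelled libraries, which is 0.72 on the log2 scale (SE 0.08; edgeR adjusted p of 0.0173). Hyou1 rose from 129 ± 13.3 to 199 ± 14.8 CPM (SD, n = 3; log2 fold change 0.62, edgeR adjusted p = 0.0302). Their peaks covered 751, 1140 and 601 bases, all with centres in coding sequence.

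Mki67 measured 433.8, 399.6 and 396.3 CPM in WT and 597, 636 and 665 CPM in KO-labelled libraries, without overlap (log2 fold change 0.63 ± 0.07 SE, edgeR adjusted p = 0.0200). E2f1, a transcription factor of the G1 to S transition, measured 59.5, 57.9 and 58.0 CPM in WT and 87.9, 117.6 and 109.6 CPM in KO-labelled libraries, without overlap (log2 fold change 0.85 ± 0.11 SE, edgeR adjusted p = 0.0227). Its peak (745 bases) was centred in the 3′ UTR. Nasp, a histone chaperone, rose from 153 ± 4.22 to 206 ± 0.998 CPM (log2 fold change 0.43, edgeR adjusted p = 0.0272). Sox12, a SoxC transcription factor, rose from 24.0 ± 3.69 to 52.9 ± 11.4 CPM (log2 fold change 1.14, edgeR adjusted p = 0.0333). Tmem43, an inner nuclear membrane protein, rose from 65.9 ± 2.83 to 101.4 ± 11.04 CPM (log2 fold change 0.62, edgeR adjusted p = 0.0293). In each the groups did not overlap. The other 15 that rose ran from a log2 fold change of 0.31 in Phax, an RNA export adaptor gene, to 0.85 in Anp32a, and included the condensin ATPase gene Smc2 (0.51), the chromokinesin gene Kif4 (0.54) and Cenpb (0.56).

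Of the 8 with smallest p among those that fell, Sp140 had 76.0, 75.4 and 70.9 CPM in WT and 42.6, 35.3 and 34.7 CPM in KO-labelled libraries. The groups did not overlap (log2 fold change -0.98 ± 0.10 SE, edgeR adjusted p = 0.0143). In KO cells 74.0% of its m6A peak was covered. Dtx3l, a ubiquitin ligase partner of PARP9, fell from 69.1 ± 5.02 to 43.2 ± 6.79 CPM (log2 fold change -0.68, edgeR adjusted p = 0.0358), and 56.7% of its peak was covered. Psme1, a subunit of the PA28 proteasome activator, fell from 268 ± 6.23 to 204 ± 6.47 CPM (log2 fold change -0.39, edgeR adjusted p = 0.0333). Cald1 measured 649.4, 673.7 and 633.5 CPM in WT and 531, 512 and 509 CPM in KO-labelled libraries, without overlap (log2 fold change -0.33, edgeR adjusted p = 0.0377), and 96.8% of its 1858-base peak was covered.

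Rbm12b1, an RNA-binding protein gene, fell from 18.5 ± 0.818 to 11.7 ± 1.35 CPM (log2 fold change -0.65, edgeR adjusted p = 0.0375). Crcp, which encodes an RNA polymerase III subunit, fell from 50.3 ± 1.90 to 37.5 ± 1.82 CPM (log2 fold change -0.42, edgeR adjusted p = 0.0376). Stx4a, a plasma membrane syntaxin, fell from 159 ± 3.24 to 114 ± 16.04 CPM (log2 fold change -0.49, edgeR adjusted p = 0.0491). The other 2 that fell were Ccdc91 (log2 fold change -0.37) and Neat1. Neat1 measured 959, 753 and 797 CPM in WT and 599, 394 and 382 CPM in KO-labelled libraries (log2 fold change -0.87, edgeR adjusted p = 0.0491).

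Olfr56 fell from 5.24 ± 0.470 to 1.31 ± 0.584 CPM (log2 fold change -1.99, edgeR adjusted p = 0.0294), and its m6A peak had no KO peak. Its gene model overlaps another gene on its own strand and 9 on the other strand, so its reads are uncertain. Of the 33 called hosts, 16 overlap a gene on the other strand and 5 on the same strand. Such overlaps were also found among uncalled hosts, and their share over all hosts is not given. Whether the counting used strand is not stated in the sources used here.

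**Figure D5:**
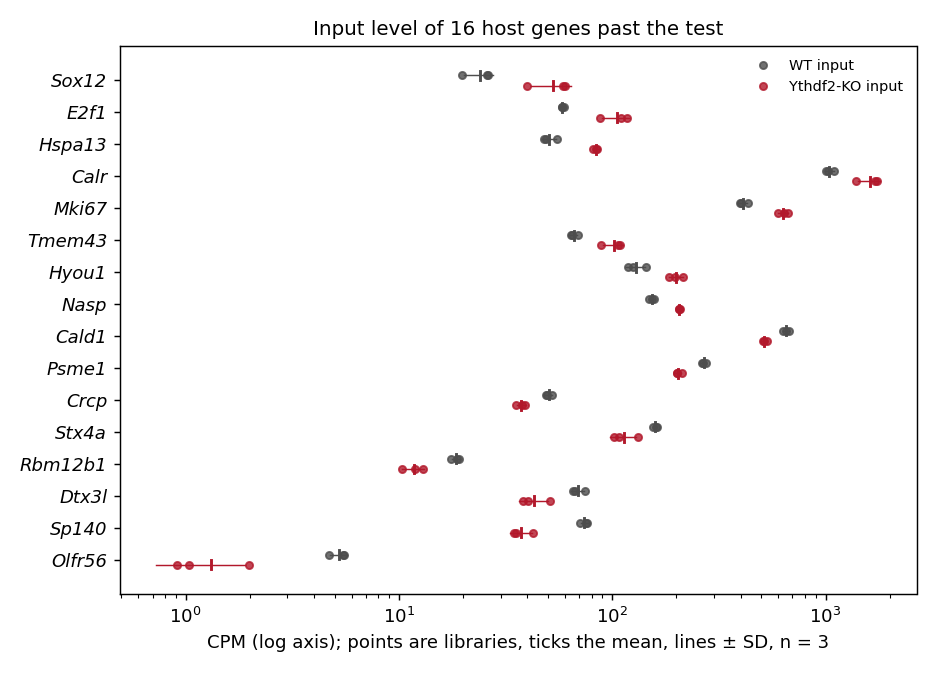
Input level (CPM, log axis) of the 16 host genes with smallest p, 8 that rose and 8 that fell. Points are libraries, vertical ticks the group mean and horizontal lines ± SD (n = 3); WT and Ythdf2-KO points do not overlap in any of the 16.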

How the data were processed

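RNA of MC38 cells was profiled by m6A immunoprecipitation, YTHDF2 RIP and input sequencing in 16 libraries. For the 6 inputs the authors deposited a table of raw, unscaled gene counts, with 0 columns of other samples. The authors also deposited 3 lists of peaks in exonic blocks, 1 per group, each peak with a score that was read as a p-value from the values alone (0 to 0.003). The submitters' processing notes name HISAT2, HOMER, ChIPseeker and mm10 without a role. The sources used here give neither the peak caller, nor how libraries were combined, nor the counter. Immunoprecipitation signal of single libraries was not analysed here.

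Peaks were compared by shared exonic bases on the same strand (at least 1 base) in Python 3.11.15. Centres were placed on the transcript with the longest coding sequence of GENCODE M21. For composition, the transcript holding most bases of the peak was used, or a coding one holding at least 0.8 of those bases, and 95.0% of the 594 peaks' bases lay in it. Codon shares needed 50 codons. Intervals on shares are exact Clopper-Pearson (95%).

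Counts were tested with edgeR 4.0.16 (quasi-likelihood, TMM, filterByExpr, no covariate, Benjamini-Hochberg at 0.05) in R 4.3.3. CPM use TMM-scaled library sizes, ± is the SD over 3 libraries, and an SE is the absolute log2 fold change over the root of F. A level of 3 counts, the limit that a count of 0 allows, was 0.0582 to 0.0652 CPM, for counting error only. No library pair agreed within sampling noise (chi-square per degree of freedom 9.01 for the closest). Since no label tells whether the replicates are separate cultures, a p-value here reflects only spread between samples that could be technical. Overlap, placement and test functions were tested on simulated data.

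Named genes were the hosts of the 10 widest peaks, peaks at the width limit, peaks without a KO peak, hosts with several peaks, list members and the 8 hosts of smallest p in each direction. Sequences with DRACH in capitals came from the widest peaks in 1 coding exon, 1 per gene. Other examples are said to be chosen after their values were seen. The members and lists were chosen with earlier results of these data known. Alternatives covered the width limit, the RIP condition, the motif, the scaling (DESeq2 size factors), the filter, DESeq2 1.42.0, the replicate block and each library left out.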

Additional observations from a re-analysis of the deposited data

How the results depend on the processing

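With limits of 500 and 800 bases in place of 600, 1010 and 260 peaks were left, with 82.4% and 93.4% of centres in coding sequence and median purine shares of 59.7% and 61.8%. At 500 bases the median largest-block share was 67.6% and the median glutamate codon share 12.7%. Counting only the stricter RIP peaks gave 780 peaks, with a largest-block share of 68.7% and a purine share of 59.8%. Requiring no RIP peak anywhere in the gene left 436. Counting only KO peaks at or below the median score gave a KO overlap of 97.0%. The motif GGAC stood at a median of 4.52 per kilobase. One peak per locus with no mitochondrial peak, an alternative chosen after seeing the data, left 582.

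Hosts called higher and lower numbered 38 and 19 at 500 bases, 12 and 5 at 800 bases, and 15 and 5 in genes with no RIP peak, as fewer or more hosts were tested. Shares of the hosts tested are not given for these settings, so the counts do not compare hosts with all genes. Without the filter the counts were 4 and 1, with DESeq2 82 and 38. With single libraries left out they ran from 0 to 141 and from 0 to 75. Over all tested genes 568 were higher and 293 lower, against 70 and 41 without the filter, 2134 and 1134 with DESeq2, and 0 to 3782 and 0 to 3144 with single libraries left out. All 33 called hosts kept their sign in every fit. They were chosen by the fit with all libraries, and their WT and KO-labelled values did not overlap, so this carries little information. Of the 33, 29 stayed called with DESeq2 size factors in edgeR and 5 without the filter. The cause was not tested.

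The replicate number as a block gave 2 hosts higher and 2 lower (45 and 26 over all genes), and 3 of the 33 stayed called. The calls made up 0.758% of hosts, against 0.374% of all genes and 0.595% of genes with a WT m6A peak. Same-numbered libraries correlated at 0.049, 0.115 and 0.05 in their deviations from the group means. Each correlated best with its own number, a hint from the data only. These values are small and do not settle whether the numbers pair the samples.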
